A study of Homo sapiens with 8 samples.

Results

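The MAP kinase cascade outside the p38 branch was followed at the level of RNA in lung cancer cell lines that had been selected for growth in the presence of an FGFR inhibitor. The 45 genes were listed by symbol: 4 RAS GTPases, 3 genes for RAF kinases and the KSR1 scaffold, 5 MAP4 kinases, 16 MAP3 kinases, 5 MAP2 kinases, 9 MAP kinases and 3 scaffolds of the JNK branch. All 45 were rows of a table of 37441 genes, and 44 of them passed a minimum of 10 counts summed over the 8 libraries, as did 18203 genes altogether. The exception was MAPK4, an atypical ERK, with 2 counts in the second NCI-H1703R library and 0 counts in the other 7.

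NCI-H1581 and NCI-H1703 are lines of non-small cell lung cancer, and the unselected cells of each are the sensitive variant. NCI-H1581R and NCI-H1703R are their resistant variants, grown for 4 to 6 months in CPL304110, an FGFR inhibitor, from 50 nM up to a final 2.5 µM for NCI-H1581R and 5 µM for NCI-H1703R. The 2 libraries of a variant come from separate rounds of culture, so n = 2 in each of the 4 variants. The sources used here do not say whether the last medium held inhibitor, nor whether a resistant variant is a single clone or a mixed population. NCI-H1581 and NCI-H1581R were kept in DMEM/F12 and NCI-H1703 and NCI-H1703R in RPMI 1640, so medium and cell line cannot be told apart.

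Signals from receptors such as FGFR reach the nucleus partly through relays of kinases. A RAS GTPase loaded with GTP recruits a RAF kinase, RAF phosphorylates the MAP2 kinases MEK1 and MEK2, and these activate the MAP kinases of the ERK class. Stress and cytokine signals use parallel relays, in which MAP4 and MAP3 kinases act on MKK4 and MKK7 (genes MAP2K4 and MAP2K7) and through them on the JNK kinases, while a further relay runs through MEK5 (MAP2K5) to ERK5 (MAPK7). These proteins are switched mainly by phosphorylation, which RNA counts do not measure.

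The libraries held from 33800389 to 40031710 counts. Levels are given as CPM (counts scaled to a common library total, with TMM factors over all 8 libraries), and 3 counts correspond to 0.0749 to 0.0897 CPM. Replicates of NCI-H1581R lay furthest apart, with a median absolute difference of 0.342 log2 units between replicates over 42 of the genes with 10 or more counts in both, against 0.115 to 0.139 in the other variants. The summed level of 5 epithelial markers (EPCAM, CDH1, KRT8, KRT18 and KRT19) fell from 73.3 to 75.6 CPM in NCI-H1703 to 6.76 to 8.41 CPM in NCI-H1703R, and was 19 to 22.7 CPM in NCI-H1581 and 13.1 to 15.1 CPM in NCI-H1581R. Squamous markers (TP63, KRT5, KRT6A, DSG3 and SOX2) summed to 7.74 to 8.34 CPM in NCI-H1581, 34.6 to 39.3 CPM in NCI-H1581R, 38.3 to 38.6 CPM in NCI-H1703 and 0.978 to 1.51 CPM in NCI-H1703R. Lung glandular markers (NKX2-1, NAPSA, SFTPB and SFTPC) summed to 15.6 to 17.5 CPM in NCI-H1581, 41.5 to 61.5 CPM in NCI-H1581R, 1.97 to 2.602 CPM in NCI-H1703 and 1.96 to 2.06 CPM in NCI-H1703R, with SFTPC at 0 in every library. Mesenchymal markers led by VIM summed to between 2666 and 6717 CPM in all 8 libraries, and 5 markers of blood and endothelial cells to between 15.2 and 97.1 CPM, nearly all of it CD68, with CD3E at 0 and PTPRC at no more than 15 counts. The part of these shifts in the results below was not tested, and in bulk RNA fewer cells of a kind and less RNA per cell cannot be told apart.

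The stretch upstream of a gene's start is where many factors that set its transcription bind, and 3 such stretches are shown for genes with some of the clearest changes in NCI-H1703R. They are MAP3K5, which fell there, and ARAF and MAPK8IP2, which rose. Together with RRAS, for which no sequence was held, they had the 4 lowest adjusted p-values in that comparison. Each is the 250 bases before the RefSeq start on GRCh38.p14, 5′ to 3′ on the gene's own strand, at chr6:136793092-136793341 on the minus strand for MAP3K5, chrX:47560955-47561204 on the plus strand for ARAF and chr22:50600543-50600792 on the plus strand for MAPK8IP2. Capitals mark the GC box, the letters GGGCGG on either strand.
MAP3K5: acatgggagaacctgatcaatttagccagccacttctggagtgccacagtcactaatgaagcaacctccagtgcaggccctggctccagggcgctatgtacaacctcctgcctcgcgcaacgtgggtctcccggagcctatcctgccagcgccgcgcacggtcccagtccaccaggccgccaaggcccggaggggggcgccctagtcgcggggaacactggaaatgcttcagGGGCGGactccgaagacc
ARAF: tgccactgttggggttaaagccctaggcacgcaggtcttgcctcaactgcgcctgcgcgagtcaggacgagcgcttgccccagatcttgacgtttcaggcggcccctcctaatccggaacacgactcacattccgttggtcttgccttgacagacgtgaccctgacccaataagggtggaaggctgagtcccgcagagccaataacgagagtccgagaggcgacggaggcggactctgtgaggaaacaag
MAPK8IP2: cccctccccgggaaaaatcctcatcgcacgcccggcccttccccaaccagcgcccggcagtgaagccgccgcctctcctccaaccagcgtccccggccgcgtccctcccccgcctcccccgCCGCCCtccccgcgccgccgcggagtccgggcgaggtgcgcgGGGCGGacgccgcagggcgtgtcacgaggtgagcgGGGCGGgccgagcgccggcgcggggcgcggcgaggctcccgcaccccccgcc

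The stretches were all rich in G and C, at 64% with 16 CpG pairs for MAP3K5, 59.2% with 18 for ARAF and 81.2% with 41 for MAPK8IP2. The GC box occurred 1 time before MAP3K5, 0 times before ARAF and 3 times before MAPK8IP2. Sequences were held for 40 of the 45 genes, of which 30 (75%) had a GC box in the 250 bases, against 42.2% of 27326 promoters of all genes. Those 27326 promoters were not limited to genes that passed the count minimum or that code for protein, and the difference was not tested. A further 3 motifs bound by factors at the end of these cascades were also searched on both strands. The ETS letters CCGGAAG stood before HRAS, MAP3K6, MAP3K7 and MAPK8IP3 (10% of 40, against 8.78% of all promoters), the ATF/CREB letters TGACGTCA before MAP3K13 and MAPK8IP3 (5% against 1.75%), and the AP-1 letters TGANTCA before MAPK10 alone (2.5% against 6.57%). These are matches of letters and not known sites, and none of these 3 motifs lay in the stretches printed here.

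In NCI-H1581R, 8 of the 44 genes were called against NCI-H1581. A call means throughout that the p of edgeR's quasi-likelihood test, adjusted by Benjamini-Hochberg over 18203 genes, was under 0.1. The 8 calls were 18.2%, against 15.1% of all genes tested. Among them 6 were higher (MAP3K5, NLK, RRAS2, MAP2K4, MAP4K3 and MAPK9), where 7.63% of all genes were called higher, and MAPK15 and MAP3K6 were lower, where 7.44% of all genes were. In NCI-H1703R the calls were 10 of 44, or 22.7% against 14.7% of all genes. There 6 were higher (MAP3K8, ARAF, MAPK8IP2, MAP3K2, NLK and MAP3K11; 7.06% of all genes were called higher) and 4 were lower (MAP3K5, RRAS, MAP3K21 and MAP4K4; 7.67% of all genes were called lower).

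The median log2 fold change of the 44 genes was 0.22 in NCI-H1581R, against 0.04 over all genes, and 0.06 in NCI-H1703R, against 0. The median absolute change of 0.36 and 0.29 was close to that of all genes, 0.42 and 0.29. Without overlap between the variants, 17 genes lay above and 10 below the sensitive libraries in NCI-H1581R, and 15 above and 14 below in NCI-H1703R, out of 44 each. Over all genes 26.7% lay above and 23.9% below in NCI-H1581R, and 23.8% and 27.5% in NCI-H1703R. NLK was the gene called higher in both lines, MAP3K5 was called in opposite directions, none was called lower in both by edgeR or DESeq2, and 28 (63.6%) were called in neither. Over all genes 0.692% were called higher in both, 0.95% lower in both, 1.74% in opposite directions and 73.6% in neither. With the replicate round as a block, 3 genes were called in the same direction in both lines and 3 in opposite directions (6.82% each), against 3.79% and 3.81% of all genes.

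**Figure D1:**
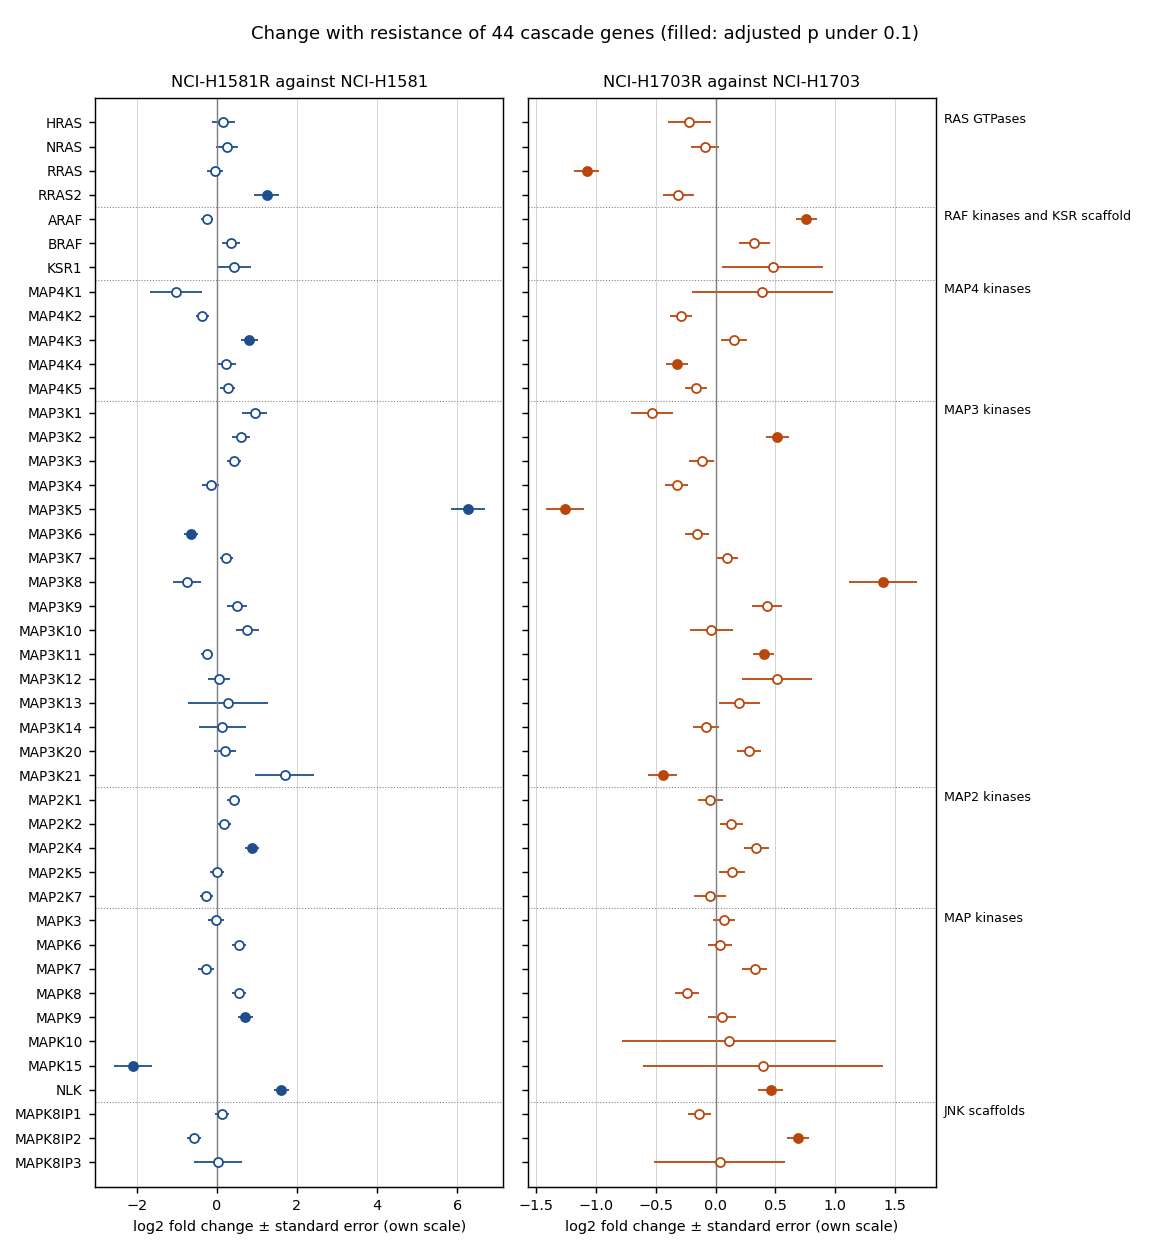
Log2 fold change of the resistant over the sensitive variant for the 44 genes in NCI-H1581 (left) and NCI-H1703 (right), with bars of 1 standard error from edgeR, 4 libraries a comparison, the genes in order of role and the horizontal scale set for each panel. Filled points are calls at an adjusted p under 0.1, 8 on the left and 10 on the right; MAPK10 is not drawn on the left, where it had 0 counts.

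The change with resistance itself differed between the lines for 15 of 44 genes (34.1%, against 15.4% of all genes), tested as an interaction in a fit of all 8 libraries. The shift was more positive in NCI-H1703 for ARAF, MAP3K8, MAP3K11 and MAPK8IP2, and more negative there for RRAS, RRAS2, MAP4K3, MAP3K1, MAP3K3, MAP3K5, MAP3K21, MAP2K4, MAPK8, MAPK9 and NLK. Over all genes 6.93% were called in the first direction and 8.47% in the second.

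Among the RAS GTPases, the R-RAS relatives moved and the classical members HRAS and NRAS were not called. RRAS, which codes for a GTPase known for its part in integrin adhesion, stood at 54.5 and 46.7 CPM in NCI-H1581, 56.0 and 41.0 CPM in NCI-H1581R, 111 and 109 CPM in NCI-H1703 and 46.5 and 55.2 CPM in NCI-H1703R. Both NCI-H1703 libraries were thus far above the other 6, which overlapped one another. The fall in NCI-H1703R was 2.11-fold (log2 −1.08, SE 0.11, adjusted p = 0.00444), and the change differed from that in NCI-H1581R by −1.05 (SE 0.25, adjusted p = 0.03).

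RRAS2, also called TC21 and like RRAS able to act on RAF and PI3 kinase, stood at 5.49 and 6.47 CPM in NCI-H1581, 17.8 and 10.5 CPM in NCI-H1581R, 27.8 and 29.6 CPM in NCI-H1703 and 20.5 and 24.8 CPM in NCI-H1703R. The NCI-H1581R libraries lay above NCI-H1581 but were spread widely, and those of NCI-H1703R lay below NCI-H1703. The rise in NCI-H1581R was 2.36-fold (log2 1.24, SE 0.32, adjusted p = 0.0606), the shift in NCI-H1703R was −0.31 (adjusted p = 0.216, and 0.0305 with the block), and the lines differed by −1.57 (SE 0.36, adjusted p = 0.0261). HRAS changed by 0.16 and −0.22 and NRAS by 0.26 and −0.09 on the log2 scale in NCI-H1581R and NCI-H1703R, with adjusted p from 0.53 to 0.8. The NRAS libraries of NCI-H1581R stood at 289 and 164 CPM, a wider spread than in any other variant.

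Of the RAF kinases, ARAF rose in NCI-H1703R. It stood at 170 and 148 CPM in NCI-H1581, 132.5 and 132.4 CPM in NCI-H1581R, 61.5 and 65.2 CPM in NCI-H1703 and 104.7 and 105.4 CPM in NCI-H1703R. The resistant libraries of each line thus lay between the sensitive libraries of NCI-H1581, which were highest, and those of NCI-H1703, which were lowest. The rise in NCI-H1703R was 1.70-fold (log2 0.76, SE 0.09, adjusted p = 0.00817), the shift in NCI-H1581R was −0.25 (SE 0.16, adjusted p = 0.407), and the lines differed by 0.99 (SE 0.16, adjusted p = 0.00701). On the scale of CPM per kilobase of transcript, which allows genes to be compared, ARAF made up 88.6% to 94.3% of the summed level of ARAF, BRAF and KSR1 in every library.

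BRAF changed by 0.35 and 0.33 on the log2 scale in NCI-H1581R and NCI-H1703R, with adjusted p of 0.406 and 0.197. With the replicate round as a block the adjusted p in NCI-H1703R was 0.0361. KSR1, a scaffold that brings RAF, MEK and ERK together, was the most weakly measured of the 3, at 2.97 and 4.64 CPM in NCI-H1581, 3.45 and 6.78 CPM in NCI-H1581R, 1 and 0.688 CPM in NCI-H1703 and 1.24 and 1.08 CPM in NCI-H1703R. Both variants of NCI-H1581 lay above both variants of NCI-H1703, and neither change with resistance was called (adjusted p of 0.615 and 0.562). Exons of neighbouring genes overlap 8.92% of the exons of KSR1.

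The MAP4 kinases, which sit above the MAP3 kinases of the JNK relay, gave 1 call in each line. MAP4K3 (GLK), which also takes part in amino acid sensing, stood at 15.7 and 15.1 CPM in NCI-H1581, 23.8 and 29.8 CPM in NCI-H1581R, 21.5 and 21.7 CPM in NCI-H1703 and 22.7 and 24.5 CPM in NCI-H1703R. NCI-H1581 was below the other 3 variants, and NCI-H1581R rose 1.75-fold above it (log2 0.81, SE 0.20, adjusted p = 0.0565). The difference between the lines, −0.68 (SE 0.22, adjusted p = 0.091), was lost under 6 alternatives, with adjusted p up to 0.158. MAP4K4 (HGK), a kinase tied to cell movement, stood at 98.6 and 121 CPM in NCI-H1581, 105 and 151 CPM in NCI-H1581R, 126 and 132 CPM in NCI-H1703 and 103 and 99.1 CPM in NCI-H1703R. Its libraries overlapped in NCI-H1581 and did not in NCI-H1703, where the fall was 1.25-fold (log2 −0.32, SE 0.09, adjusted p = 0.0928). This call was lost without the filter on low counts (adjusted p = 0.107) and with offsets for GC content and transcript length (0.138). The difference between the lines in MAP4K4, −0.58 (SE 0.26), had an adjusted p of 0.226, and of 0.0703 with the block. The log2 changes in NCI-H1581R were −1.02 for MAP4K1, −0.36 for MAP4K2 and 0.28 for MAP4K5, and those in NCI-H1703R were 0.39, −0.29 and −0.16, with no call by edgeR except MAP4K2 in NCI-H1703R with the block (adjusted p = 0.0152), where DESeq2 also called it (0.0767).

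The MAP3 kinases held the largest change. MAP3K5 codes for ASK1, a kinase that responds to oxidative stress and drives JNK and p38. It was read by 7 and 31 counts in NCI-H1581, 1269 and 1773 in NCI-H1581R, 717 and 702 in NCI-H1703 and 278 and 347 in NCI-H1703R, or 0.208 and 0.774, 33.7 and 45.04, 19.4 and 21.0, and 7.35 and 9.16 CPM. The gene was thus nearly absent from sensitive NCI-H1581 and highest in its resistant variant, whereas in the other line the resistant variant was the lower. The rise in NCI-H1581R was 76.8-fold (log2 6.26, SE 0.42, adjusted p = 0.000331), with 5.66 when the first and 7.55 when the second NCI-H1581 replicate was left out. The fall in NCI-H1703R was 2.39-fold (log2 −1.26, SE 0.16, adjusted p = 0.00937), and the lines differed by −7.54 (SE 0.44, adjusted p = 3.87e-05). The gene lies at chr6:136557046-136793097 on GRCh38, minus strand, and its exons overlap no other gene's.

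Its relative MAP3K6 (ASK2) fell in NCI-H1581R. It stood at 42.5 and 39.0 CPM in NCI-H1581, 24.3 and 27.1 CPM in NCI-H1581R, 69.6 and 63.4 CPM in NCI-H1703 and 60.5 and 56.2 CPM in NCI-H1703R. The resistant libraries were the lower in both lines without overlap, but only the fall in NCI-H1581R was called (1.57-fold, log2 −0.65, SE 0.17, adjusted p = 0.0678, and 0.131 with scaling by total counts). The change in NCI-H1703R was −0.16 (adjusted p = 0.399). The difference between the lines, 0.47, was not called by edgeR (adjusted p = 0.15) but was by DESeq2 (0.0489).

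MAP3K8 codes for TPL2 (COT), which can activate MEK and ERK without RAF. It was read by few counts, 129 and 198 in NCI-H1581, 83 and 119 in NCI-H1581R, 71 and 101 in NCI-H1703 and 220 and 261 in NCI-H1703R, or 3.83 and 4.94, 2.21 and 3.02, 1.92 and 3.02, and 5.82 and 6.89 CPM. NCI-H1703R was the highest of the 4 variants, and NCI-H1581R lay below NCI-H1581 without overlap. The rise in NCI-H1703R was 2.65-fold (log2 1.41, SE 0.28, adjusted p = 0.0384), the shift in NCI-H1581R was −0.74 (adjusted p = 0.254), and the lines differed by 2.13 (SE 0.43, adjusted p = 0.0172).

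MAP3K2 (MEKK2), an activator of MEK5 and of the JNK relay, rose in NCI-H1703R. It stood at 20.9 and 27.1 CPM in NCI-H1581, 32.9 and 39.9 CPM in NCI-H1581R, 79.8 and 87.6 CPM in NCI-H1703 and 115 and 119 CPM in NCI-H1703R. The resistant libraries were above the sensitive ones in both lines, by 0.52 on the log2 scale in NCI-H1703R (SE 0.10, adjusted p = 0.032) and by 0.61 in NCI-H1581R, where the adjusted p was 0.148, and 0.0764 with the replicate round as a block. The difference between these changes was −0.11 (adjusted p = 0.871).

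MAP3K1 (MEKK1) and MAP3K3 (MEKK3) were called in neither line by edgeR without the block, yet their changes differed between the lines. With the block MAP3K1 was called lower in NCI-H1703R (adjusted p = 0.0414). MAP3K1 stood at 5.73 and 3.37 CPM in NCI-H1581, 7.68 and 9.43 CPM in NCI-H1581R, 7.65 and 8.22 CPM in NCI-H1703 and 5.21 and 5.52 CPM in NCI-H1703R. MAP3K3 stood at 29.2 and 29.1, 36.4 and 41.1, 47.3 and 52.6, and 44.1 and 46.2 CPM in the same order. Both lay above the sensitive libraries in NCI-H1581R and below them in NCI-H1703R, with differences between the lines of −1.495 (SE 0.37, adjusted p = 0.0382) for MAP3K1 and −0.56 (SE 0.18, adjusted p = 0.0925) for MAP3K3. The call for MAP3K3 was lost under 5 of the alternatives, with adjusted p from 0.106 to 0.18.

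Of the mixed-lineage kinases, which act in the JNK relay, MAP3K11 rose and MAP3K21 fell in NCI-H1703R. MAP3K11 (MLK3) stood at 118 and 116 CPM in NCI-H1581, 98.4 and 98.1 CPM in NCI-H1581R, 136 and 125 CPM in NCI-H1703 and 161 and 176 CPM in NCI-H1703R. It lay below the sensitive libraries in NCI-H1581R (log2 −0.24, adjusted p = 0.401) and above them in NCI-H1703R (0.40, SE 0.09, adjusted p = 0.0515), a difference of 0.62 (SE 0.16, adjusted p = 0.0412). MAP3K21 (MLK4) was read by 4 and 12 counts in NCI-H1581, 22 and 32 in NCI-H1581R, 952 and 798 in NCI-H1703 and 631 and 720 in NCI-H1703R. It was a gene of the NCI-H1703 line, with a fall there of 1.36-fold in the resistant variant (log2 −0.44, SE 0.12, adjusted p = 0.0809) that was lost without the filter on low counts (0.117) and with GC and length offsets (0.11). The change in NCI-H1581R, 1.69, rested on few counts and was not called (adjusted p = 0.219), and the difference between the lines was −2.15 (SE 0.60, adjusted p = 0.058), ranging from −3.003 to −1.69 as single libraries were left out. On the log2 scale MAP3K9 changed by 0.50 in NCI-H1581R and 0.43 in NCI-H1703R, and MAP3K10 by 0.76 and −0.04, with no call by edgeR except that of MAP3K9 in NCI-H1703R with the block (adjusted p = 0.00352), where DESeq2 also called it (0.0654).

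By edgeR without the block the other MAP3 kinases were not called in either line, while DESeq2 called MAP3K4 (adjusted p = 0.0634, and 0.0082 by edgeR with the block) and MAP3K20 (0.0622) in NCI-H1703R. The replicates of MAP3K12 and MAP3K14 stood well apart. MAP3K12 (DLK), a kinase of the JNK relay in nerve cells, stood at 57.9 and 63.0, 45.3 and 79.4, 58.4 and 37.0, and 82.6 and 50.5 CPM in NCI-H1581, NCI-H1581R, NCI-H1703 and NCI-H1703R. In each round of culture NCI-H1703R was above NCI-H1703, and the log2 change of 0.52 had an adjusted p of 0.354, against 0.000745 with the round as a block. Exons of PCBP2 overlap 18.7% of the exons of MAP3K12. MAP3K14 (NIK), the kinase of the non-canonical NF-κB route, stood at 3.24 and 14.0 CPM in NCI-H1581R, so its log2 change of 0.13 (adjusted p = 0.937) turned to −1.30 without the second replicate. Exons of its antisense gene MAP3K14-AS1 overlap 15.1% of its own, and the strand of the libraries is not given in the sources used here.

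**Figure D2:**
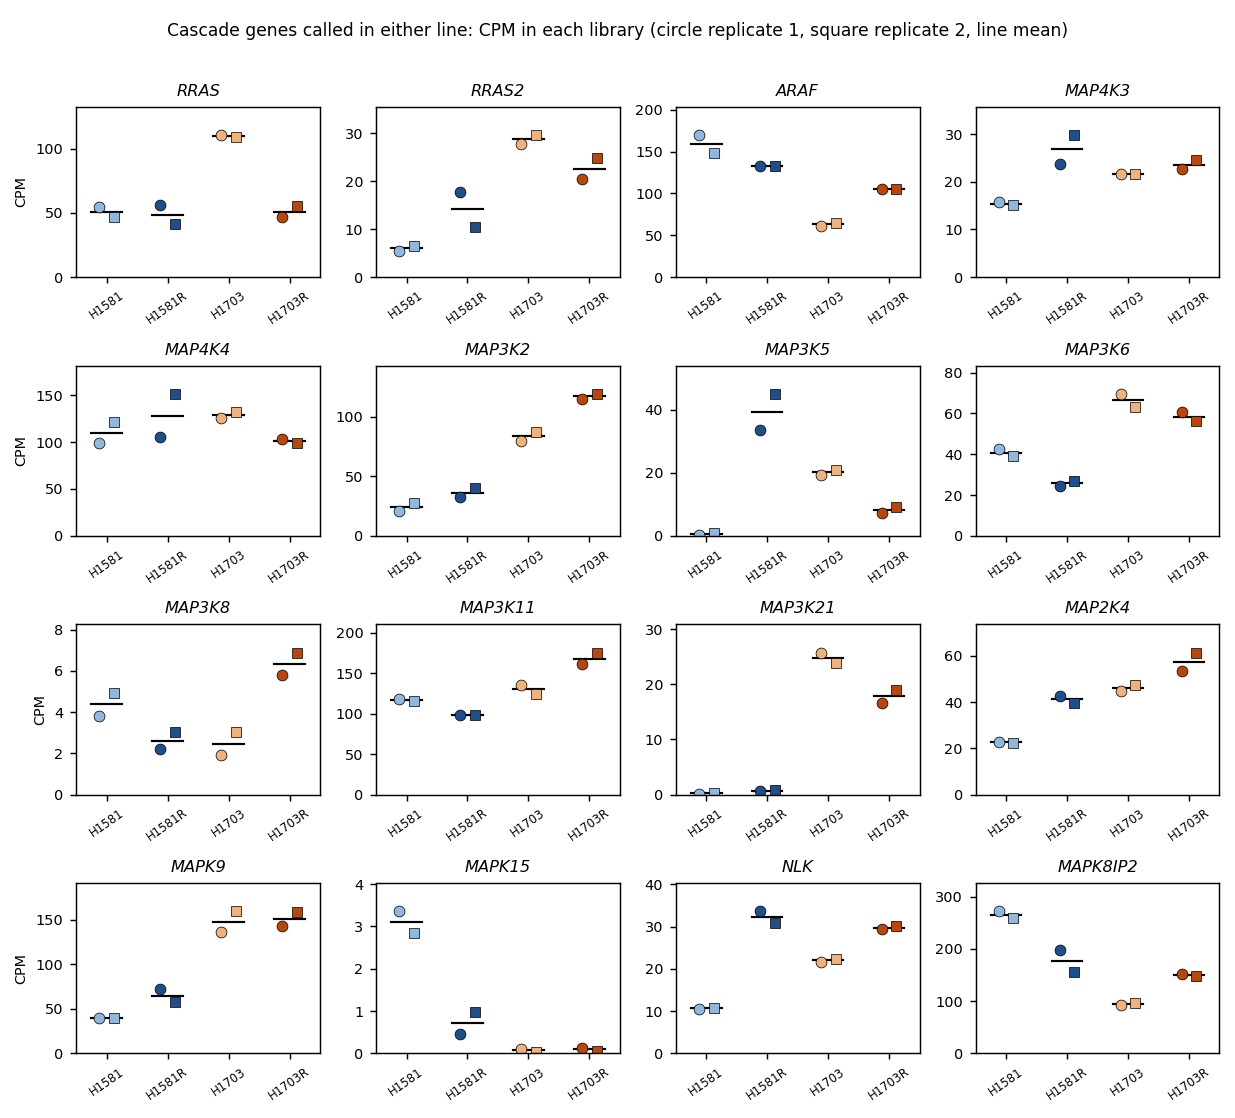
CPM (linear axis from 0, scaled for each gene) of the 16 genes called in either line, in each of the 8 libraries; circles are replicate 1, squares replicate 2 and lines the mean of the 2. MAP3K5 is near 0 in NCI-H1581 and highest in NCI-H1581R, RRAS is high only in NCI-H1703, and NLK is lowest in NCI-H1581 and near 30 CPM in both resistant variants.

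At the level of the MAP2 kinases, MAP2K4 was the 1 call. Its product MKK4 activates JNK and p38. It stood at 22.8 and 22.4 CPM in NCI-H1581, 42.7 and 39.8 CPM in NCI-H1581R, 44.9 and 47.5 CPM in NCI-H1703 and 53.3 and 61.4 CPM in NCI-H1703R. Sensitive NCI-H1581 was the low variant, and the rise in NCI-H1581R was 1.84-fold (log2 0.88, SE 0.17, adjusted p = 0.0224). In NCI-H1703R the shift was 0.34 (adjusted p = 0.121, and 0.00706 with the block), and the difference between the lines of −0.56 (SE 0.18, adjusted p = 0.0929) was lost under 4 alternatives, with adjusted p up to 0.175.

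No MAP2 kinase was called in NCI-H1703R by edgeR without the block, with 1 of 5 at an unadjusted p under 0.05. MAP2K1 and MAP2K2, which code for MEK1 and MEK2, changed by 0.41 and 0.18 on the log2 scale in NCI-H1581R and by −0.05 and 0.13 in NCI-H1703R (adjusted p from 0.197 to 0.862). MAP2K5, coding for MEK5, changed by 0.01 and 0.14 and MAP2K7, coding for MKK7, by −0.27 and −0.05. Exons of other genes overlap 20.5% of those of MAP2K1 and 8.51% of those of MAP2K7.

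Among the MAP kinases, NLK was the gene that rose in both lines. NLK, Nemo-like kinase, is an atypical member known for phosphorylating TCF/LEF factors of the WNT pathway. It stood at 10.6 and 10.7 CPM in NCI-H1581, 33.6 and 31.0 CPM in NCI-H1581R, 21.7 and 22.3 CPM in NCI-H1703 and 29.3 and 30.1 CPM in NCI-H1703R. The sensitive lines differed, and all 4 resistant libraries lay within 29.3 to 33.6 CPM, above every sensitive library. The rise was 3.05-fold in NCI-H1581R (log2 1.61, SE 0.19, adjusted p = 0.00296) and 1.38-fold in NCI-H1703R (log2 0.46, SE 0.10, adjusted p = 0.0504), larger in the first by 1.17 (SE 0.18, adjusted p = 0.00514). NLK lies at chr17:28041737-28196381 on GRCh38, plus strand, and its exons overlap no other gene's.

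Of the JNK kinases, which phosphorylate JUN, edgeR called 1 within a line without the block, in NCI-H1581R. MAPK9 (JNK2) stood at 40.1 and 39.6 CPM in NCI-H1581, 72.5 and 57.3 CPM in NCI-H1581R, 136 and 159 CPM in NCI-H1703 and 143 and 158.5 CPM in NCI-H1703R. It rose 1.64-fold in NCI-H1581R (log2 0.71, SE 0.18, adjusted p = 0.0595), a call lost with GC and length offsets (0.121), and the libraries of NCI-H1703 and NCI-H1703R overlapped (0.06, adjusted p = 0.841). MAPK8 (JNK1) stood at 22.9 and 24.1, 33.0 and 35.4, 48.5 and 51.1, and 39.8 and 42.9 CPM in the same order. Both resistant variants thus lay between the sensitive ones, with a shift of 0.55 in NCI-H1581R (adjusted p = 0.109 by edgeR and 0.0791 by DESeq2), a shift of −0.24 in NCI-H1703R (adjusted p = 0.211, and 0.0402 with the block) and a difference of −0.81 (SE 0.17, adjusted p = 0.0199). For MAPK9 the difference was −0.68 (SE 0.21, adjusted p = 0.0867), lost under 5 alternatives with adjusted p up to 0.211. MAPK10 (JNK3), mainly a gene of the nervous system, had 0 counts in all 4 libraries of NCI-H1581 and NCI-H1581R, 20 and 2 counts in NCI-H1703 and 9 and 16 counts in NCI-H1703R.

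MAPK15 (ERK8), an atypical kinase, fell in NCI-H1581R. It was read by 113 and 114 counts in NCI-H1581, 17 and 38 in NCI-H1581R, 4 and 1 in NCI-H1703 and 5 and 2 in NCI-H1703R. It was thus detected well in a single variant, sensitive NCI-H1581, and was close to the limit of detection in the NCI-H1703 line. The fall was 4.28-fold (log2 −2.10, SE 0.47, adjusted p = 0.0397), and −2.77 without the second NCI-H1581R replicate. MAPK3, which codes for ERK1, changed by −0.02 in NCI-H1581R (SE 0.19) and 0.07 in NCI-H1703R (SE 0.09), with adjusted p of 0.989 and 0.725. MAPK6 (ERK3) changed by 0.54 and 0.04 (adjusted p of 0.12 and 0.897 by edgeR, and 0.0582 in NCI-H1581R by DESeq2), and MAPK7 (ERK5) by −0.28 and 0.33 (0.473 and 0.12, the latter 0.0122 with the block).

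Of the scaffolds that hold the JNK relay together, MAPK8IP2 (JIP2) rose in NCI-H1703R. It stood at 272 and 259 CPM in NCI-H1581, 198 and 156 CPM in NCI-H1581R, 93.5 and 96.5 CPM in NCI-H1703 and 152.5 and 147 CPM in NCI-H1703R. As with ARAF, the sensitive libraries of the lines formed the extremes and the resistant libraries lay between them. The rise in NCI-H1703R was 1.61-fold (log2 0.69, SE 0.09, adjusted p = 0.0103), the shift in NCI-H1581R was −0.58 (adjusted p = 0.107, 0.0836 with the block and 0.0163 by DESeq2), and the difference was 1.24 (SE 0.19, adjusted p = 0.00514). MAPK8IP1 changed by 0.12 and −0.14. MAPK8IP3 stood at 11.2 and 13.0 CPM in NCI-H1581, 4.33 and 19.9 CPM in NCI-H1581R, 29.0 and 11.4 CPM in NCI-H1703 and 29.1 and 11.4 CPM in NCI-H1703R. The second replicate was the higher by 2.20 on the log2 scale in NCI-H1581R and the lower in both variants of NCI-H1703 (−1.35 each), and no change with resistance was detectable (adjusted p of 1 in both lines). Its log2 change in NCI-H1581R of 0.02 was −1.49 without the second replicate.

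In NCI-H1703R the replicate round mattered for the count of calls. With the round as a block, 21 of 44 genes were called, 12 higher and 9 lower, against 34.9% of all genes. Within a line the block leaves less data to measure the spread of each gene. Its p-values thus lean more on spread pooled over genes and are not firmer than those without it. The additional 11 were BRAF, MAP3K9, MAP3K12, MAP3K20, MAP2K4 and MAPK7, which were higher, and RRAS2, MAP4K2, MAP3K1, MAP3K4 and MAPK8, which were lower, with log2 changes between −0.53 and 0.52. In NCI-H1581R the block gave 10 calls, against 18.1% of all genes.

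By the count of calls the sensitive lines differed from each other more widely than either did from its resistant variant. Between sensitive NCI-H1703 and sensitive NCI-H1581, 36 of 44 genes were called (81.8%, against 62.9% of all genes), 23 of them higher in NCI-H1703 and 13 lower, where 32.5% and 30.4% of all genes were. With at least 10 counts required in every library of the fit, 73.3% of all genes were called. The median log2 difference of the 44 genes was 0.54, against 0.04 over all genes, and 0.30 with GC and length offsets. Of the 16 MAP3 kinases 12 were higher and 2, MAP3K8 and MAP3K9, were lower in NCI-H1703, while ARAF, BRAF and KSR1 were all lower there.

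The largest differences were in MAP3K13 and MAP3K21, both of the JNK relay. MAP3K13 (LZK) was read by 7 and 4 counts in NCI-H1581, 3 and 11 in NCI-H1581R, 650 and 752 in NCI-H1703 and 771 and 931 in NCI-H1703R, so both variants of NCI-H1703 were high and both of NCI-H1581 close to the floor. The difference between the sensitive lines was 131-fold (log2 7.03, SE 0.41, adjusted p = 5.06e-06), and for MAP3K21 it was 112-fold or 6.81 (SE 0.31, adjusted p = 1.82e-06). The latter rested on 4 and 12 counts in NCI-H1581 and ranged from 6.36 to 7.66 on the log2 scale as single libraries were left out. MAPK10 came next by the fit (adjusted p = 0.0341), but no fold is given because it had 0 counts in NCI-H1581. On the lower side MAPK15 led (adjusted p = 0.000127, with 4 and 1 counts in NCI-H1703), followed by KSR1, 4.53-fold lower in NCI-H1703 (log2 −2.18, SE 0.44, adjusted p = 0.00415), and MAPK8IP2, 2.80-fold lower (−1.48, SE 0.09, adjusted p = 9.31e-06).

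Per kilobase of transcript, MAP2K2 had the highest mean level of the 44 genes in all 4 variants, at 95.6, 108, 158 and 170 CPM per kilobase in NCI-H1581, NCI-H1581R, NCI-H1703 and NCI-H1703R. In the NCI-H1703 line the summed level of the 16 MAP3 kinases was 278 ± 0.778 (SD, n = 2) CPM per kilobase in the sensitive and 301 ± 10.1 (SD, n = 2) in the resistant variant, against 95.5 ± 1.38 and 103 ± 14.9 (SD, n = 2) for NCI-H1581 and NCI-H1581R. MAP3K20 (ZAK), a kinase that senses stalled ribosomes, and MAP3K14 together made up 51.0% to 54.0% of that sum in the 4 libraries of the NCI-H1703 line and 2.12% to 4.19% in those of the NCI-H1581 line. The difference between the sensitive lines was 66.2-fold for MAP3K20 (log2 6.05, SE 0.14) and 36.2-fold for MAP3K14 (log2 5.18, SE 0.12), and neither was called for a change with resistance in either line, except that MAP3K20 in NCI-H1703R (log2 0.28) had an adjusted p of 0.00835 with the block and of 0.0622 by DESeq2.

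**Figure D3:**
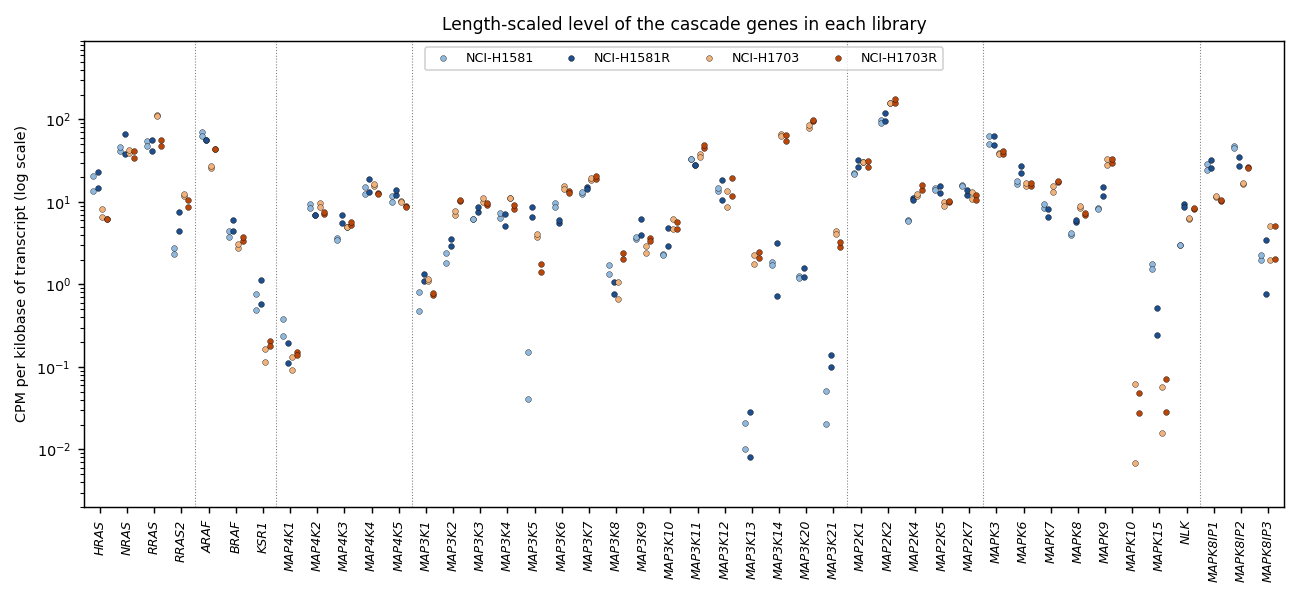
Level of 44 genes in CPM per kilobase of transcript (log axis), 1 point a library, coloured by variant and grouped by role with dotted lines; MAPK4 is left out and libraries at 0 are not drawn. MAP2K2 is highest, and MAP3K13, MAP3K14, MAP3K20 and MAP3K21 separate the NCI-H1703 line from the NCI-H1581 line.

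Between the resistant variants the gap was often smaller. NCI-H1703R against NCI-H1581R gave 26 calls of 44 (59.1%, against 52.5% of all genes), 15 higher and 11 lower, where 25.9% and 26.7% of all genes were called. The absolute log2 gap between the lines was smaller after selection for 28 of 44 genes (63.6%), against 51% of all genes, and its median went from 0.84 to 0.54, against 0.94 to 0.91 over all genes. Among the 36 genes called between the sensitive lines 27 had a smaller gap (75%), against 60.2% of the 11444 genes so called over the whole table. The genes in this last comparison were picked for a gap in the same sensitive libraries, which by itself favours a smaller gap afterwards. These shares were not tested, and the genes share their libraries.

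Of the 15 genes whose change differed between the lines, ARAF, MAPK8IP2, RRAS, RRAS2, NLK, MAPK8, MAP4K3 and MAP3K3 were called between the sensitive lines and not between the resistant ones, which does not show that the resistant levels were equal. Their log2 gaps went from −1.32 to −0.30 for ARAF, −1.48 to −0.20 for MAPK8IP2, 1.12 to 0.10 for RRAS, 2.26 to 0.72 for RRAS2, and 1.04 to −0.09 for NLK. These shifts are the same quantity as the differences in change given above, seen from the other side. MAP3K5 reversed its order, from 5.28 (SE 0.34, adjusted p = 1.05e-05) between the sensitive lines to −2.22 (adjusted p = 0.00125) between the resistant ones. The first value ranged from 4.70 to 6.58 as single libraries were left out. MAP3K8 also reversed, from −0.86 (adjusted p = 0.0633, and 0.118 by DESeq2) to 1.31 (adjusted p = 0.0172). So did MAP3K1, from 0.825 (adjusted p = 0.0347) to −0.638 (adjusted p = 0.0783, and 0.114 by DESeq2).

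**Figure D4:**
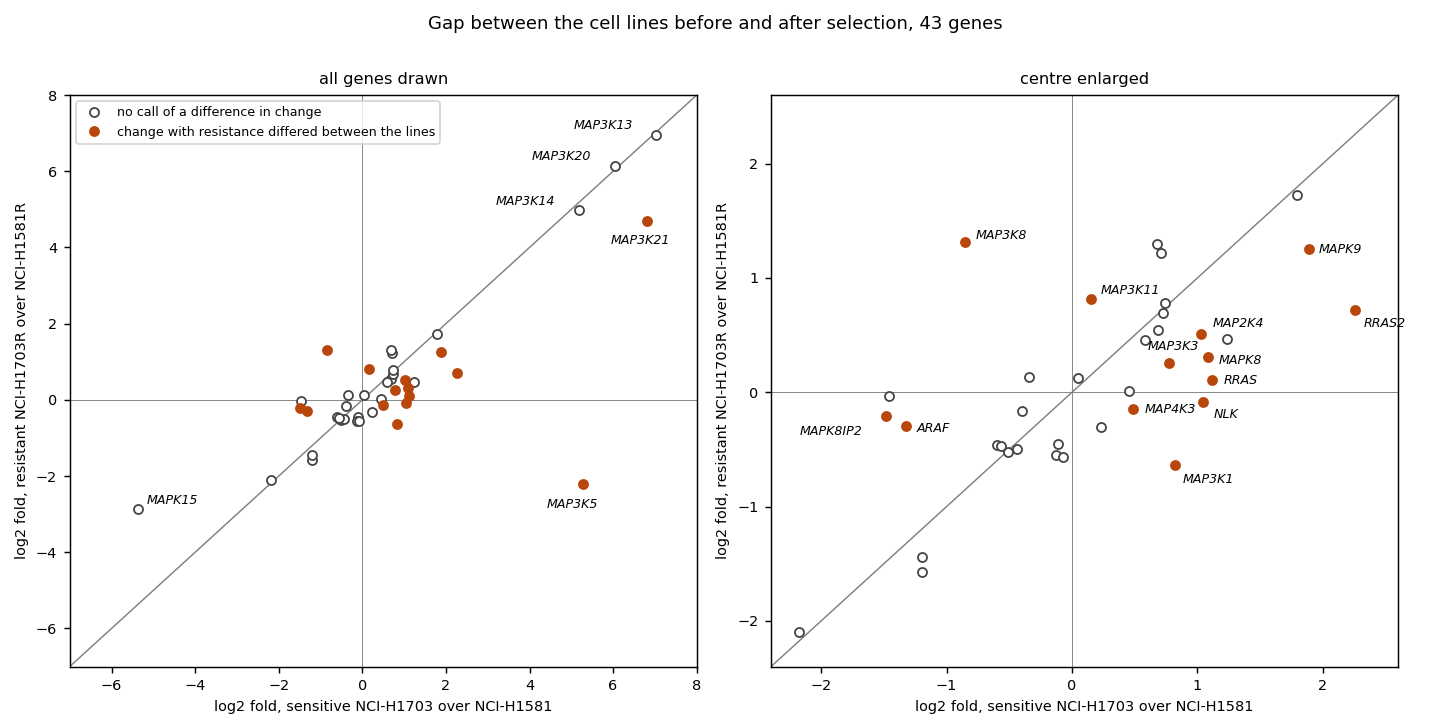
Log2 fold of NCI-H1703 over NCI-H1581 between the sensitive variants (horizontal) and between the resistant variants (vertical) for 43 genes, with the centre enlarged on the right and the diagonal marking an unchanged gap; MAPK10 is left out because it had 0 counts in the NCI-H1581 line. Filled points are 15 genes called for a difference in change; ARAF, MAPK8IP2, RRAS and NLK lie near the horizontal line at 0, and MAP3K5 lies far below it.

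The genes that feed into the cascade and lie below it were counted from lists of related genes. Of all genes tested 7.63% were called higher and 7.44% lower in NCI-H1581R, and 7.06% and 7.67% in NCI-H1703R. The lists are short and were not tested against these shares. Of 18 RAS regulators and adaptors 2 were higher and 3 lower in NCI-H1581R, where RASGRP1, a RAS activator, fell most (log2 −2.41, SE 0.60, adjusted p = 0.057), and 0 were higher and 3 lower in NCI-H1703R, where RASAL2, which switches RAS off, fell by 0.45 (SE 0.10, adjusted p = 0.0544). Of 13 further cascade kinases and scaffolds 1 was called in NCI-H1581R, SHOC2, which helps RAF become active (0.77, SE 0.18, adjusted p = 0.0468). In NCI-H1703R 3 were higher and 1 lower, led by the MAP4 kinase TNIK (2.03, SE 0.45, adjusted p = 0.0501). Of 8 kinases downstream of ERK 4 were higher and 1 lower in NCI-H1581R, led by RPS6KA6 (4.77, SE 0.75, adjusted p = 0.00921), and 1 was higher in NCI-H1703R, MKNK2 (0.79, SE 0.13, adjusted p = 0.0227).

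Among 18 transcription factors downstream of ERK, JNK and ERK5, 0 were called higher and 5 lower in NCI-H1581R. In NCI-H1703R 2 were higher and 6 lower. Of all genes 15.1% were called in NCI-H1581R and 14.7% in NCI-H1703R. EGR1, an immediate early gene, fell by 5.32 on the log2 scale in NCI-H1581R (SE 0.28, adjusted p = 0.000127), and ETV4, an ETS factor, fell by 3.39 in NCI-H1703R (SE 0.21, adjusted p = 0.00134). Of 9 feedback inhibitors of ERK signalling, phosphatases of the DUSP family and SPRY and SPRED proteins, 3 were lower in NCI-H1581R and 8 in NCI-H1703R, with none higher in either. Their medians were −0.47 and −1.93, and the leading genes were SPRY2 in NCI-H1581R (−2.70, SE 0.23, adjusted p = 0.000834) and SPRY1 in NCI-H1703R (−5.51, SE 0.39, adjusted p = 0.00167). Of 9 genes of the p38 branch none was called in NCI-H1581R by edgeR, with 1 at an unadjusted p under 0.05. DESeq2 made 1 call there. MAPKAPK3 was called in NCI-H1703R by edgeR (0.42, SE 0.12, adjusted p = 0.09). In NCI-H1703R the block gave 4 calls, 3 higher and 1 lower, and DESeq2 gave 2, against 34.9% and 16.7% of all genes.

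**Figure D5:**
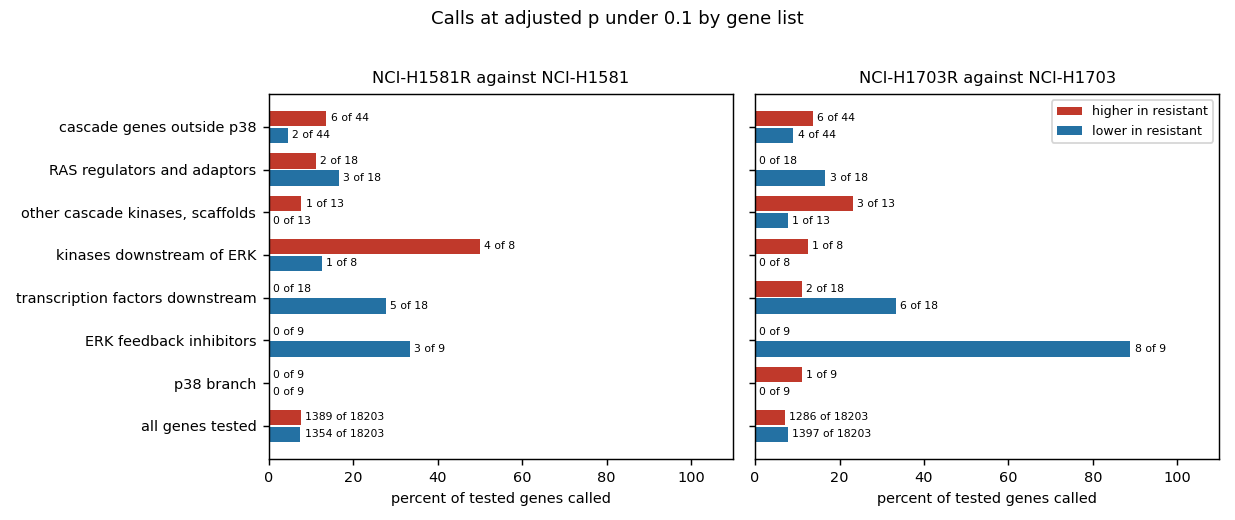
Percent of the tested genes of each list called higher (red) or lower (blue) in the resistant variant at an adjusted p under 0.1, in NCI-H1581 (left) and NCI-H1703 (right), with the counts beside the bars and all 18203 genes at the bottom. The 44 cascade genes were called in both directions in both lines, whereas 8 of 9 ERK feedback inhibitors were lower in NCI-H1703R.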

How the data were processed

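RNA of 8 libraries, 2 replicates for each of 4 variants, was sequenced by the authors in paired-end mode. The authors trimmed reads with cutadapt, ran Salmon on a GRCh38 transcriptome and used tximport to add up transcripts by gene. The table they deposited holds estimated counts, whole and without normalisation. Tool versions, annotation and strandedness are not given in the sources used here. All 8 columns were used.

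Genes with at least 10 counts in total were tested with edgeR 4.0.16 in R 4.3.3 (TMM, quasi-likelihood, two-sided), each line on its own 4 libraries, and both lines together for the difference between them. The standard error is the log2 fold change divided by the square root of F. Symbols, positions, canonical transcript lengths and exon overlaps came from GENCODE v44, and promoter sequences from RefSeq. The floor of 3 counts covers counting error only, and p-values measure only the spread between these libraries. The second replicate was a repeat of the whole procedure, so same-numbered libraries were taken as paired rounds; deviations of the paired libraries correlated at 0.196 for NCI-H1581 and 0.406 for NCI-H1703 over 11174 genes. Between the lines the correlations were −0.000788, −0.112, −0.311 and −0.452, so the block is read within a line. Alternatives were DESeq2 1.42.0, other scalings and filters, the round as a block, GC and length offsets, a joint fit, and leaving out each library. The code was tested on simulated data.

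The 45 genes and the lists were chosen with earlier results of these data known, and the comparison of the resistant variants was added after seeing the data. Values in every library are given for genes called within a line or for the difference, and for the 3 genes with the largest difference in each direction between the sensitive lines; of other lists only the called gene with the largest change is named.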

Additional observations from a re-analysis of the deposited data

Results flagged for a closer look

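The change with resistance differed between the lines by the interaction test for 15 genes. The differences, NCI-H1703 minus NCI-H1581 on the log2 scale, were 0.99 for ARAF, 2.13 for MAP3K8, 0.62 for MAP3K11 and 1.24 for MAPK8IP2. They were −1.05 for RRAS, −1.57 for RRAS2, −0.68 for MAP4K3, −1.495 for MAP3K1, −0.56 for MAP3K3, −7.54 for MAP3K5, −2.15 for MAP3K21, −0.56 for MAP2K4, −0.81 for MAPK8, −0.68 for MAPK9 and −1.17 for NLK.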

How the results depend on the processing

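The 8 calls in NCI-H1581R became 13 with the replicate block and GC and length offsets, 18 in a fit of all 8 libraries and 4 at an adjusted p under 0.05, and ranged from 2 to 21 as single libraries were left out. Without either NCI-H1581 replicate the 2 were MAP3K5 and NLK, and 21 and 15 genes were called without NCI-H1581R replicate 1 and 2. The 10 calls in NCI-H1703R became 16 with 10 counts required in every library, 21 with the replicate block, 24 with the block and offsets and 6 in a fit of all 8 libraries or at an adjusted p under 0.05. They ranged from 0 to 7 with a library left out: 0 by edgeR without either NCI-H1703 replicate, where 12 and 11 genes had an unadjusted p under 0.05 and 1.61% and 1.51% of all genes were called, 7 without NCI-H1703R replicate 1 and 5 without NCI-H1703R replicate 2. In such fits 1 library stands for its variant and is taken to vary like the others. The 15 differences between the lines ranged from 5 to 18 with a library left out. The 26 calls between the resistant variants became 16 with the block and ranged from 13 to 31. In comparisons between variants of different lines this block assumed a round effect common to both. Deviations of the paired libraries correlated at −0.452 for the resistant and −0.000788 for the sensitive variants, so these block results are not read as a dependence on the round. The 36 calls between the sensitive lines stayed within 1.5 times under every alternative. With the block no call within a line was lost, and the differences of MAP4K4 and MAPK7 were also called (adjusted p of 0.0703 and 0.0811, edgeR). Between the sensitive lines, with the common round effect, MAP4K1 was lost (0.123) and MAP4K4 gained (0.095). DESeq2 gave 11 calls in NCI-H1581R and 14 in NCI-H1703R, against 17.7% and 16.7% of all genes. All 8 and all 10 calls were among them. The share of all genes called moved with the settings too. In NCI-H1581R it was 24.4% with the block and offsets and 24.9% in a fit of all 8 libraries. In NCI-H1703R it was 34.9% with the block, 38.7% with the block and offsets and 9.5% in a fit of all 8 libraries. With 10 counts required in every library it was 20.1% in NCI-H1581R and 24.3% in NCI-H1703R. It also moved as single libraries were left out. Among values called in the fit concerned, directions reversed for MAP3K14 (−1.30) and MAPK8IP3 (−1.49) in NCI-H1581R and for the difference in MAP3K14 (1.18) without NCI-H1581R replicate 2, against 0.83, 0.73 and −0.93 without replicate 1. The cause was not tested. Values without a call also changed sign as single libraries were left out: counting these 3, the sign turned for 14 of 44 genes in NCI-H1581R, 11 in NCI-H1703R and 15 for the difference, among them HRAS (−0.18 to 0.46) and NRAS (−0.19 to 0.60) in NCI-H1581R and MAPK8IP3 in NCI-H1703R (−0.80 to 0.85). Scaling by total counts moved the median of all genes in NCI-H1581R to 0.11. All alternatives of the resistant comparison and the legacy quasi-dispersions were chosen after seeing the data.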
